A study of Bos taurus with 24 samples.

Results

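The miR-181 family of the bovine mammary gland was followed as its 4 mature miRNAs, bta-miR-181a, bta-miR-181b, bta-miR-181c and bta-miR-181d (written below without the species prefix), which are 4 of the 796 miRNAs listed in each deposited table. Their rows were found by name, and all 4 were counted in each of 22 small RNA libraries and passed the filter on low counts in every comparison. A further row whose name begins in the same way, miR-1814c, is another miRNA and had between 0 and 4 reads per library, so it was left aside.

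MicroRNAs are short RNAs that pair with messenger RNAs and lower their translation or stability, mainly through a short stretch near their 5′ end called the seed. Members of the miR-181 family share their seed and differ at other positions. The family is best known from blood cells, where miR-181a sets how strongly developing T cells respond to antigen, and it is also expressed in epithelial, endothelial and muscle tissue. In the RefSeq annotation of the bovine genome ARS-UCD2.0, which was used for names and neighbours only, the family had 6 genes at 3 loci. MIR181A-1 lay beside MIR181B-1 with no other gene over them, and MIR181A-2 and MIR181B-2 lay beside each other within NR6A1, a nuclear receptor gene, and a long noncoding RNA gene. MIR181C and MIR181D overlapped NANOS3, a gene of germ cell development, and had MIR23A, MIR27A and MIR24-2 within 50 kb. The rows of miR-181a and miR-181b therefore each pool the product of 2 genes, and those of miR-181c and miR-181d come from a single locus. How reads that match several near-identical members were counted is not given in the sources used here, so the split of reads between members is uncertain, although none of the 4 rows shared its counts with another row.

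Biopsies were taken from lactating cows of 2 dairy breeds, Holstein (HOLS, n = 5) and Montbéliarde (MONT, n = 6), on day 0 in the control period (CONT) and after 6 days of feed restriction (REST), set in the labels at 60% of the net energy of lactation. Each cow gave 1 library per period, from alternate rear glands of the udder per the study's methods, so that the libraries of a cow differ in gland as well as in feeding. A period group is therefore HOLS CONT, HOLS REST, MONT CONT or MONT REST, and all cows were multiparous and in midlactation. Biopsies are whole tissue, in which fewer cells of a type and less RNA per cell cannot be told apart.

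Total counts ran from 6087865 to 18913916 per library, with a median of 10947822.5. Epithelial markers, which include the miR-200 family, were present as a sum in every library. Of the 10 listed epithelial miRNAs 9 were in the tables (miR-203 had no row). Their summed level ran from 26979.8 to 57658 in HOLS and from 14721 to 51628 in MONT. It is given in reads scaled to the library total with TMM factors over all libraries (CPM). Within MONT the epithelial sum was 20304 to 51628 CPM in CONT and 14721 to 36497 CPM in REST. Of the leukocyte, endothelial, epithelial, smooth muscle, stromal and red blood cell lists, no marker with a row was at 0 in all 22 libraries. Counts of 0 in single libraries were not looked for. The CPM scale below is the same for all levels.

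miR-181a was by far the most abundant member. It made up between 94.7% and 95.5% of the family's reads in the HOLS libraries and between 94.8% and 97.0% in the MONT libraries, and by mean level it was the 13th most abundant miRNA of the gland in HOLS and the 11th in MONT. miR-181b followed at rank 58 in HOLS and 67 in MONT, miR-181c at 99 and 80, and miR-181d at 177 and 157. Small RNA libraries capture different miRNAs with different efficiency, so the order of members is an order of reads. miR-181a had from 129054 to 599522 reads per library, miR-181b from 3596 to 15392, miR-181c from 892 to 14614 and miR-181d, the scarcest, from 94 to 1551. Counting error alone was thus small for the first but not for the last, for which the lowest count of 94 has an exact Poisson 95% interval of 76.0 to 115, or a relative SD of 10.3%.

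**Figure D1:**
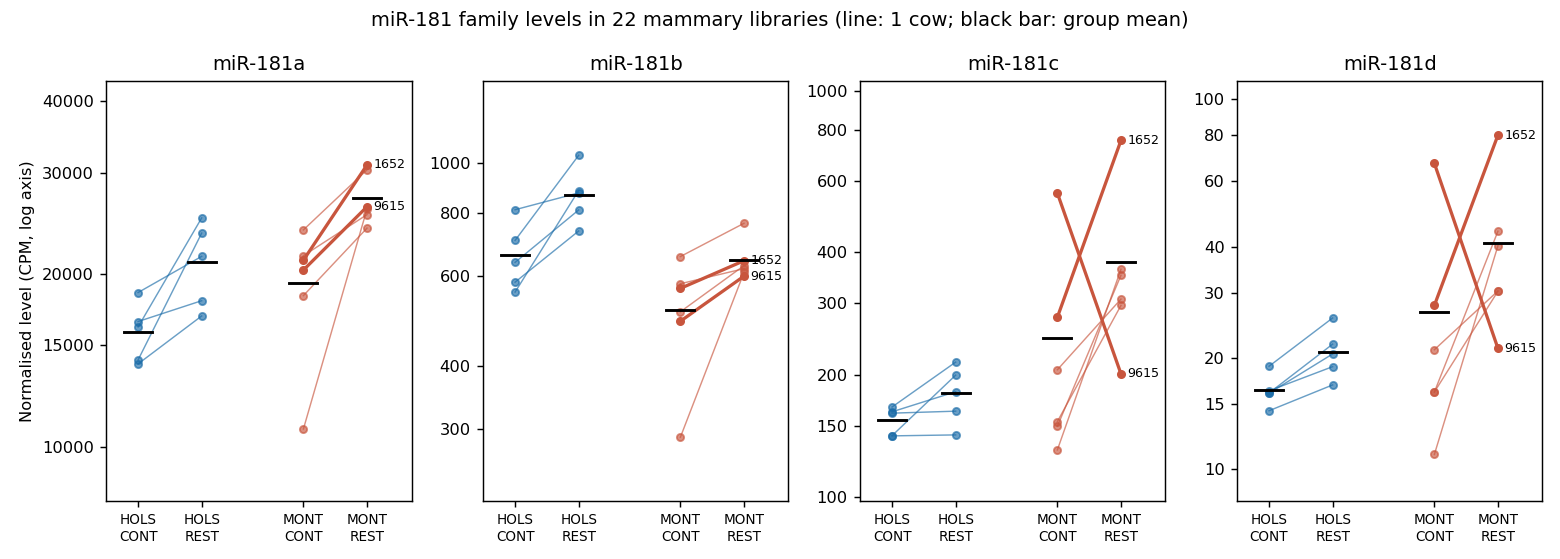
Levels of the 4 miR-181 members in CPM (vertical log axis, a separate range per panel) in HOLS (blue) and MONT (red) libraries at CONT and REST, with 1 line per cow, a black bar at each group mean and thick lines for MONT cows 9615 and 1652. miR-181a and miR-181b were higher at REST in every cow, while miR-181c and miR-181d fell in cow 9615 and were higher in the other cows.

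The first question was whether feed restriction was accompanied by a change of the family in HOLS. All 4 members were higher at REST than at CONT in 5 of 5 cows, with fitted log2 fold changes between 0.28 and 0.47, but none passed the threshold in the fit that takes libraries as unpaired. Of all 374 miRNAs tested, 9.63% were higher at REST in every HOLS cow and 2.41% were called, with 0% called as higher. The ranges of the periods overlapped for all 4 members, where 7.75% of the miRNAs had separate ranges and 0.802% did so as higher. With the cow as a block, which uses the fact that both libraries come from the same animal, miR-181a, miR-181b and miR-181d passed and miR-181c did not, where 16.3% of all miRNAs tested passed and 8.02% did so as higher. DESeq2 called miR-181a and miR-181b, where 3.45% of 754 miRNAs were called and 0.928% as higher.

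miR-181a, which in cultured mammary epithelial cells has been tied to fatty acid handling, had 14159, 13933, 16160, 16513 and 18548 CPM at CONT in cows 1155, 1165, 2182, 8200 and 9195. At REST the same cows had 23539, 16885, 25017, 17949.7 and 21442 CPM. Every cow had the higher value at REST, but the periods overlapped, since cows 1165 and 8200 at REST lay below cow 9195 at CONT. The group means were 15863 ± 1894 and 20967 ± 3500 CPM (SD, n = 5). The edgeR quasi-likelihood test gave a log2 fold change of 0.47 (SE 0.15) with a Benjamini-Hochberg adjusted p of 0.0996 without the block and 0.45 (SE 0.11) with an adjusted p of 0.0256 with it.

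miR-181b, made from the same precursor transcripts as miR-181a, had 558, 584, 705, 638 and 810.4 CPM at CONT in the same order of cows. At REST it had 884, 736, 1037, 809 and 875 CPM. Again each cow was higher at REST, and again cow 9195 at CONT lay above cows 1165 and 8200 at REST. miR-181b had the smallest adjusted p of the family in HOLS, with a log2 fold change of 0.46 (SE 0.14) and an edgeR adjusted p of 0.0979 without the block, and of 0.46 (SE 0.09) and 0.00977 with it.

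miR-181c had 142, 162, 167, 142 and 161 CPM at CONT and 199.7, 182, 215, 142 and 163 CPM at REST. Cows 8200 and 9195 hardly differed between periods, with log2 changes of 0.01 and 0.02, while cows 1155 and 2182 were higher at REST by 0.49 and 0.37. miR-181d had 16.1, 16.3, 19.01, 14.4 and 16.1 CPM at CONT and 21.8, 18.96, 25.7, 16.9 and 20.5 CPM at REST, with log2 changes in the cows between 0.22 and 0.44. The 2 members thus moved in the same direction in each cow, and miR-181d had the narrowest spread of changes, 0.33 ± 0.11 (SD, n = 5). In edgeR the adjusted p was 0.224 for miR-181c and 0.179 for miR-181d without the block, and 0.0787 and 0.0430 with it.

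With the cow as a block and each cow left out in turn, an alternative added after the data were seen, miR-181b passed in 5 of 5 cases, miR-181a only without cow 8200, and miR-181c and miR-181d in none. Under scaling by library size only, which moved the median log2 fold change of all miRNAs to -0.15, miR-181c was higher at REST in 3 of 5 cows and miR-181d in 4 of 5, while miR-181a and miR-181b kept 5 of 5. The family's median log2 fold change in HOLS was 0.43, where the median of all miRNAs tested was 0.02. In the same libraries the median log2 fold changes of the marker lists were 0.36 for the 7 leukocyte, 0.35 for the 2 smooth muscle, 0.32 for the 2 endothelial and 0.29 for the 4 stromal miRNAs, and -0.10 for the 9 epithelial and -0.09 for the 3 red blood cell miRNAs. With the block, edgeR called 4 of 7 leukocyte, 2 of 2 smooth muscle, 1 of 2 endothelial and 1 of 3 red blood cell miRNAs as higher and 3 of 9 epithelial miRNAs as lower. Of all miRNAs tested 16.3% passed in that fit, and 8.02% did so as higher. The part of these markers in the levels of the miR-181 members was not tested.

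**Figure D2:**
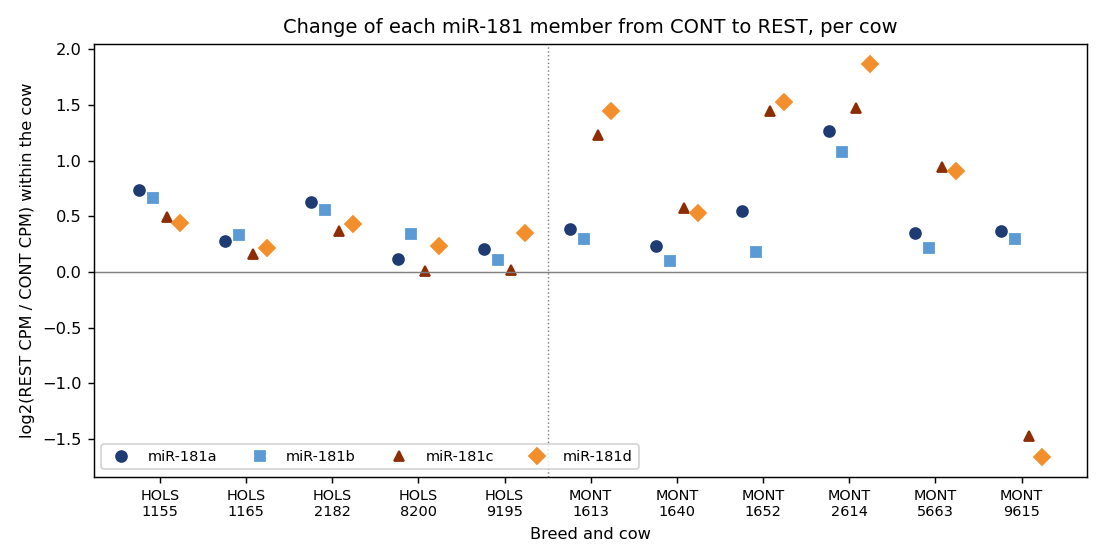
Log2 change of the level from CONT to REST within each cow (vertical axis) for the 4 members in the 5 HOLS and 6 MONT cows (horizontal axis). HOLS changes lay between 0.01 and 0.73, and in MONT miR-181c and miR-181d lay between 0.53 and 1.87 in 5 cows and at -1.48 and -1.66 in cow 9615.

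The same question in MONT had another shape. miR-181a was higher at REST in 6 of 6 cows with no overlap between periods, and miR-181b was higher in 6 of 6 cows with overlap, whereas miR-181c and miR-181d were higher in 5 of 6 cows and lower in cow 9615. No member passed the threshold without or with the block. The share of all 349 miRNAs tested that passed was 0% in both fits and also in DESeq2, while 47 had an unadjusted p below 0.05 in edgeR and 56 in DESeq2.

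miR-181a ran from 10733 through a median of 20708 to 23845 CPM at CONT and from 24012 through 26045 to 30933 CPM at REST. Cow 2614 held the lowest CONT value and had the largest change, 1.27 on the log2 scale, and the other 5 cows changed by 0.24 to 0.55. miR-181a was the only miRNA of the 349 tested, 0.287%, whose periods did not overlap in MONT. It was also the only one on the authors' normalized counts (at most 231729 at CONT and at least 238226 at REST), but with library size only the periods overlapped, with up to 24514 CPM at CONT and from 20808 CPM at REST. The gap between the periods was thus small against the spread within them, and edgeR gave a log2 fold change of 0.50 (SE 0.17) with an adjusted p of 0.314. The exact unpaired permutation test of its levels gave p = 0.00216, the smallest that 6 against 6 libraries allow, and the exact paired test gave 0.0312, the smallest for 6 cows. Both are two-sided, unadjusted and among 16 such comparisons of members computed. The unpaired value follows from the lack of overlap and the paired one from the rise in every cow, so they add no separate evidence. In MONT the same exact tests gave miR-181b 0.0260 unpaired and the same paired value, 0.0312. For miR-181c and miR-181d they gave 0.253 and 0.268 unpaired and 0.219 paired for each. In HOLS the exact unpaired test gave 0.0317, 0.0238, 0.103 and 0.0238 for miR-181a, b, c and d. The exact paired test gave 0.0625 for each in HOLS, the smallest that 5 cows allow. Between the breeds the exact unpaired test gave 0.0693 to 0.307 in CONT. In REST it gave 0.00866 for miR-181a, b and c and 0.0130 for miR-181d.

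miR-181b ran from 289 through 539 to 656 CPM at CONT and from 599.7 through 624.8 to 762 CPM at REST. The REST libraries were tightly grouped, 5 of them between 599.7 and 643 CPM, and cow 2614 again had the lowest CONT value and the largest change, 1.08. The other 5 cows changed by 0.10 to 0.30. The log2 fold change was 0.33 (SE 0.17), with an edgeR adjusted p of 0.405. A rise in every MONT cow was seen for 9 of the 349 miRNAs tested, 2.58%, miR-181a and miR-181b among them, and with library size only for 2, which were miR-181a and miR-181b.

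miR-181c ran from 131 through 179.8 to 559.7 CPM at CONT and from 201 through 329 to 754 CPM at REST. The highest CONT value belonged to cow 9615 and lay above the REST values of all cows but 1652, and the lowest REST value also belonged to cow 9615. In the cows 1613, 1640, 1652, 2614 and 5663 the log2 change was 1.23, 0.58, 1.44, 1.47 and 0.95, and in cow 9615 it was -1.48. miR-181d followed it, with changes of 1.44, 0.53, 1.53, 1.87, 0.90 and -1.66 in the same order. It ran from 10.98 through 18.6 to 67.2 CPM at CONT and from 21.2 through 35.3 to 80.0 CPM at REST.

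Both members had wide errors. The log2 fold change was 0.67 (SE 0.38) for miR-181c and 0.68 (SE 0.42) for miR-181d, with edgeR adjusted p of 0.437 and 0.438. Left-out cows moved both in either direction. Without cow 1652 both were 0.29 (edgeR adjusted p 0.773 and 0.812), and without cow 9615 they were 1.20 and 1.304, each with an adjusted p of 0.0346, so that 2 of 4 members passed where 12.8% of 358 miRNAs tested did. With the block as well, an alternative added after the data were seen, miR-181a (adjusted p 0.0215), miR-181c (0.00119) and miR-181d (0.00136) passed in edgeR, where 39.1% did. Removing this cow thus changed the call for a large share of all miRNAs and not for the family alone.

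Cell type markers differed in the same libraries. In cow 9615 the summed level of the 4 stromal miRNAs (miR-199a-3p, miR-199a-5p, miR-199b and miR-214) was 2703 CPM at CONT, the highest of that group, and 1367 CPM at REST, the lowest of its group. The 9 epithelial miRNAs moved the other way in this cow, from 20805 to 36497 CPM, and the 7 leukocyte miRNAs went from 8449 to 4757 CPM. The REST library of cow 1652, the highest for miR-181c and miR-181d, had 3112 CPM of the stromal and 14721 CPM of the epithelial miRNAs, the highest and the lowest of all 22 libraries. It was also the lowest of all for the endothelial (17237 CPM) and red blood cell miRNAs (1124 CPM). For the smooth muscle miRNAs it was the lowest of its group (195480 CPM), and its leukocyte sum of 6082 CPM was the 3rd highest of all 22. In cow 9615 the smooth muscle sum was 374114 CPM at CONT, the highest of that group, and 370683 CPM at REST, the 2nd highest of its group. This cow's endothelial sum went from 24751 to 32087 CPM and its red blood cell sum from 2694 to 4538 CPM. In all, the stromal sum ran from 818 to 1121 CPM in HOLS CONT, 926 to 1408 in HOLS REST, 822 to 2703 in MONT CONT and 1367 to 3112 in MONT REST. The leukocyte sum ran from 2257 to 3734, 2402 to 5660, 2527 to 8449 and 2876 to 6405 CPM in the same order. The part of these markers in the levels of miR-181c and miR-181d was not tested.

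Whether the breeds differed in their response was tested directly, as the breed-by-period interaction in a joint fit of the 22 libraries. The MONT change minus the HOLS change was 0.09 (SE 0.23) for miR-181a, -0.08 (SE 0.22) for miR-181b, 0.40 (SE 0.46) for miR-181c and 0.29 (SE 0.51) for miR-181d on the log2 scale, each with an edgeR adjusted p of 0.991. Of the 388 miRNAs tested 0% passed, 3 had an unadjusted p below 0.05 in edgeR, and DESeq2 called 0. The estimates for miR-181a and miR-181b were close to 0, but their errors leave room for differences in either direction. For miR-181c and miR-181d the errors were more than 2 times as wide. Without cow 9615 and with the block, a fit added after the data were seen, the difference was 0.93 for both, with edgeR adjusted p of 0.0385 for miR-181c and 0.0389 for miR-181d, where 5.93% of all miRNAs passed. Without cow 9615 but with no block the adjusted p was 0.391 and 0.477. Other left-out cows turned some of these estimates: without cow 1652 the difference was 0.09 for miR-181c and -0.04 for miR-181d, and for miR-181a it was -0.01, -0.04 and -0.09 without cows 1165, 2614 and 8200.

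Levels were next compared between the breeds within a period. In CONT the log2 difference of MONT over HOLS was 0.28 for miR-181a, -0.36 for miR-181b, 0.67 for miR-181c and 0.70 for miR-181d, and none of the 4 passed in edgeR, with adjusted p between 0.181 and 0.295, where 7.47% of all 388 miRNAs did. The ranges of the breeds overlapped for every member. Without cow 9615 the differences of miR-181c and miR-181d were 0.26 and 0.19, so that the higher MONT mean of both in CONT rested mainly on this library. HOLS CONT held 155 ± 12.1 CPM of miR-181c and 16.4 ± 1.65 CPM of miR-181d (SD, n = 5), against 246 ± 163 and 26.6 ± 20.7 CPM in MONT CONT (SD, n = 6).

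In REST the signs were the same and the differences larger, and the ranges of the breeds overlapped for all 4 members, where 9.02% of all miRNAs had separate ranges. miR-181c was 1.07 higher in MONT on the log2 scale (SE 0.33, edgeR adjusted p 0.0358) and was the only 1 of 4 members to pass, where 13.7% of all miRNAs did and 8.76% did so as higher. MONT REST held 379 ± 192 CPM (SD, n = 6) and HOLS REST 180.4 ± 28.8 CPM (SD, n = 5), and the ranges overlapped because cow 9615, at 201 CPM, lay below the highest HOLS cow, at 215 CPM. Without cow 1652 the difference was 0.77 with an adjusted p of 0.125, and without any single one of cows 1155, 1165, 2182, 8200 and 9195 the adjusted p was between 0.0580 and 0.112. DESeq2 called miR-181b, miR-181c and miR-181d (10.7% of all miRNAs), scaling by library size only called miR-181c and miR-181d (14.2%), and no filter called none (4.9%). Without cow 9615, miR-181c and miR-181d passed at 1.25 and 1.16, where 26% did.

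For miR-181d the REST difference was 0.99 (SE 0.36, edgeR adjusted p 0.0691), with 41.0 ± 20.7 CPM in MONT and 20.8 ± 3.28 CPM in HOLS. miR-181a was 0.37 higher in MONT (adjusted p 0.115) and miR-181b 0.43 lower (adjusted p 0.0669), in the same test. miR-181b had 644 ± 59.7 CPM in MONT REST and 868 ± 111 CPM in HOLS REST, and the highest MONT cow lay above the lowest HOLS cow, at 762 against 736 CPM. Of the 4 stromal miRNAs 3 were also called as higher in MONT REST, with a list median of 0.99, where 8.76% of all miRNAs were called as higher. The part of this in the difference of miR-181c was not tested. Differences between breeds cannot be told apart from differences in how the libraries of each breed were made, since the deposited tables are separate and no sample links them.

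Ratios between members were then taken within each library, where scaling cancels. They were chosen with results known and are described without a test. Over both breeds the ratio of miR-181c over miR-181d had the narrowest range, and it lay between 7.94 and 11.9 in all 22 libraries, with a mean of 9.34 ± 0.888 (SD, n = 22), although miR-181c itself ranged from 131 to 754 CPM. In cow 9615 the ratio was 8.33 at CONT and 9.48 at REST, near that of the other cows. Within a breed the ratio of miR-181a over miR-181b varied less, with an SD of its log2 of 0.09 in HOLS and 0.13 in MONT, against 0.12 and 0.14 for miR-181c over miR-181d. As a share, miR-181d held between 7.74% and 11.2% of the reads of both, and in the library with the fewest such reads, 986, it was 9.53% (Wilson 95% interval 7.85% to 11.53%, counting error only).

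The ratio of miR-181a over miR-181b separated the breeds. It lay between 22.2 and 26.6 in all 10 HOLS libraries and between 35.9 and 48.1 in all 12 MONT libraries, with no overlap at either period. Mean ratios were 24.1 ± 1.46 and 39.9 ± 3.64 (SD), and the mean log2 ratio was 0.72 higher in MONT, or 1.65-fold. Neither member alone separated the breeds over both periods, and 1.03% of all 388 miRNAs had levels that did. That share is of single levels. The share of miRNA pairs with a ratio that separates the breeds was not computed, so how rare such a ratio is remains unknown. As for levels, breed cannot be told apart from how the libraries of each breed were made, and the split of reads between members is uncertain. In MONT this ratio was higher at REST in 6 of 6 cows, by 0.07 to 0.37 on the log2 scale, and in HOLS in 3 of 5 cows, between -0.22 and 0.10. The miR-181a to miR-181b ratio thus differed in level between the breeds by more than it moved with feeding in any cow.

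The pair from the other loci was set against miR-181c and miR-181d as the ratio of summed reads. In HOLS the ratio of miR-181a and b over miR-181c and d lay between 81.3 and 109.9 at CONT and between 87.7 and 122 at REST, and it was higher at REST in 5 of 5 cows, by 0.17 ± 0.07 on the log2 scale (SD, n = 5). In MONT it lay between 33.2 and 144 at CONT and between 37.9 and 120.3 at REST. It was lower at REST in 5 of 6 MONT cows, by 0.24 to 0.91, and 1.86 higher in cow 9615. The MONT mean was -0.18 ± 1.04 (SD, n = 6) and without cow 9615 it was -0.59 ± 0.30 (SD, n = 5). For this ratio of sums HOLS and MONT cows other than 9615 therefore moved in opposite directions, a comparison that excludes a cow for its values and is given as a description. The sums hold mostly reads of miR-181a and of miR-181c. For miR-181b over miR-181d, 4 of 5 HOLS cows were higher at REST and cow 9195 was lower (-0.24), with a mean of 0.07, and 5 of 6 MONT cows were lower.

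**Figure D3:**
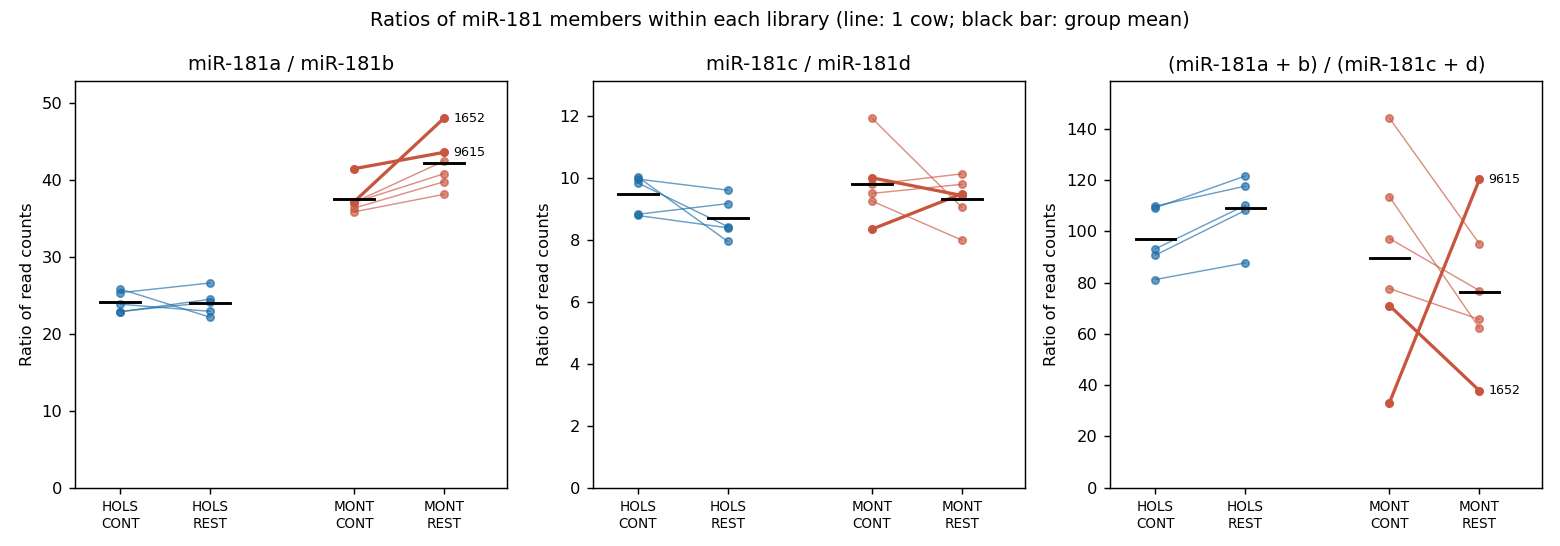
Ratios of read counts within each library (vertical axes start at 0) for miR-181a over b, miR-181c over d, and a and b over c and d, by breed and period, with 1 line per cow and a black bar at each group mean. The first ratio is at most 26.6 in HOLS and at least 35.9 in MONT, the second stays between 7.94 and 11.9, and the third spreads from 33.2 to 144 in MONT.

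Members of the same cluster also varied together across libraries. On the log2 CPM scale the Pearson correlation of miR-181c with miR-181d was 0.99 over 12 MONT libraries (Spearman 0.99) and 0.88 over 10 HOLS libraries (Spearman 0.89), and that of miR-181a with miR-181b was 0.95 in each breed (Spearman 0.80 in MONT and 0.98 in HOLS). The 4 pairs across clusters had 0.39 to 0.61 in MONT (Spearman 0.33 to 0.55) and 0.68 to 0.80 in HOLS (Spearman 0.56 to 0.71). When the 2 libraries farthest from the median of the first member were left out, these were -0.00 to 0.25 in MONT and 0.18 to 0.65 in HOLS, against 0.99 and 0.67 for miR-181c with miR-181d and 0.79 and 0.94 for miR-181a with miR-181b. Pairs within and across clusters thus stood apart in MONT, and in HOLS miR-181b with miR-181d (0.65) was close to miR-181c with miR-181d. The points share scaling factors and include both libraries of each cow, so these values describe the libraries only.

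Over all 22 libraries, the miRNAs with the highest Pearson correlation to each member among the 387 others were named. For miR-181c they were miR-181d (0.98), miR-221 (0.95) and miR-222 (0.93), and for miR-181d they were miR-181c (0.98), miR-221 (0.93) and miR-222 (0.92). The same 3 led for both when each breed and period was centred on its mean. miR-221, which is made with miR-222 from a shared precursor and is known as a promoter of cell cycle entry, changed from CONT to REST by 0.62, 0.43, 0.82, 1.09, 1.04 and -1.04 on the log2 scale in MONT cows 1613, 1640, 1652, 2614, 5663 and 9615. Its sign thus matched miR-181c in every MONT cow, cow 9615 included, but miR-221 was picked by its correlation over these same libraries. This match and the correlations within each breed follow in part from that choice and are a description only. Within MONT the correlation of miR-181c with miR-221 was 0.96 (Spearman 0.94), and 0.96 without the 2 libraries farthest from the median of miR-181c, whereas in HOLS it was 0.54 (Spearman 0.59), where miR-221 spanned only 138 to 179 CPM.

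miR-181a was most like miR-25 (0.81), miR-504 (0.79) and miR-12029 (0.78), the last of which had between 4 and 33 reads per library. miR-181b was most like miR-26b (0.74), miR-16b (0.72) and miR-421 (0.71). After centring on breed and period, the first for each of the pair was the other, with 0.94, and 0 of the 3 named for miR-181b remained. 

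**Figure D4:**
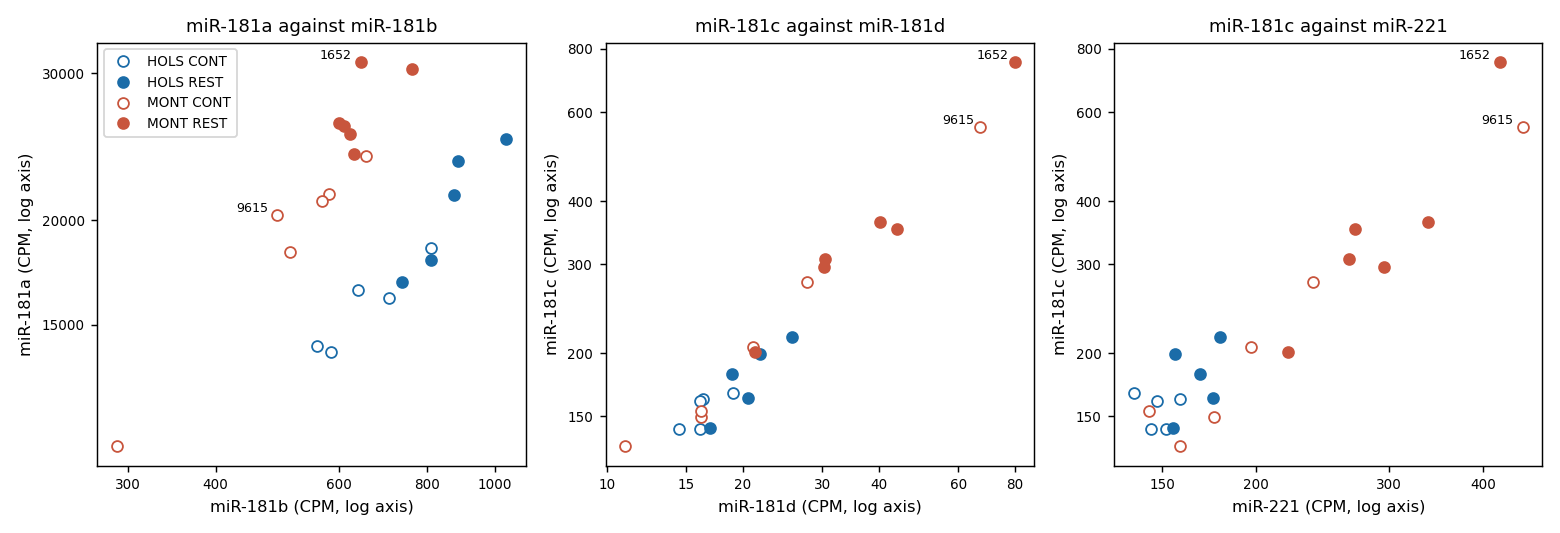
Levels in CPM on log axes for miR-181a against miR-181b, miR-181c against miR-181d, and miR-181c against miR-221, with open points for CONT and filled points for REST in HOLS (blue) and MONT (red). The breeds lie on separate lines in the first panel (ratios of at most 26.6 and at least 35.9) and on a common line in the second, where the CONT library of cow 9615 and the REST library of cow 1652 are at the top.

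The miRNAs whose genes lie beside MIR181C and MIR181D were described as well. miR-23a, miR-27a-3p, miR-27a-5p, miR-24 and miR-24-3p were each tested, and 0 of 5 passed in any of the 5 edgeR comparisons, in which 0% to 13.7% of all miRNAs passed and miR-181c passed in 1. In MONT their log2 fold changes lay between -0.13 and 0.24, against 0.67 for miR-181c. Their correlation with miR-181c over the 12 MONT libraries lay between -0.21 for miR-24 and 0.67 for miR-27a-3p, with 0.56 for miR-24-3p. Over the HOLS libraries all 5 correlations with miR-181c were below 0, from -0.60 for miR-27a-5p to -0.08 for miR-23a. miR-24 had 15 to 74 and miR-27a-5p 24 to 104 reads per library. The annotation table gives no strands, and miR-24-3p is also made from a second locus, so these values compare neighbours and not products of a shared transcript.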

How the data were processed

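Small RNA libraries of 22 mammary biopsies were analysed, and the libraries of 1 further HOLS cow in the labels were not analysed here. The deposited counts are whole reads per miRNA, made by the authors with FASTX-Toolkit, ncPRO-seq and miRDeep2 against btau5.0.1 and miRBase. The deposited normalized signal is the counts divided by the authors' size factors (DESeq2 1.18.1 per the labels) within each breed. The authors' fold changes and p-values in the same tables were not used. The labels and the study's methods give different percentages for the restriction.

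Counts were tested with edgeR 4.0.16 (R 4.3.3, TMM, filterByExpr with minimum count 10, quasi-likelihood F test, Benjamini-Hochberg adjustment over all miRNAs tested, threshold 0.05), within each breed for REST against CONT and over 22 libraries for the interaction and for breeds. Per the labels, a cow's number marks its own REST and CONT library. Their deviations from group means correlated by 0.24 to 0.51 in HOLS cows and by -0.20 (cow 9615) to 0.69 in MONT cows over 388 miRNAs, and the block is given beside the results it changes. Alternatives were DESeq2 1.42.0, voom of limma 3.58.1, other size factors and filters, the cow block and each cow left out. The edgeR fits with TMM and this filter, without and with the block, were tested on simulated data. The SE given with an edgeR estimate is the size of the estimate divided by the square root of its F statistic. Levels are CPM with TMM factors, and likeness used log2 CPM with prior count 1.

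Named miRNAs were the 4 members, other rows of that name stem, the 3 most correlated miRNAs of each member, and those with genes within 50 kb of a miR-181 gene, beside 6 marker lists. Members and lists were chosen with earlier results of these data known. Over the 22 libraries the marker sums ran from 17237 to 41789 CPM for 2 endothelial, from 152023 to 453537 CPM for 2 smooth muscle and from 1124 to 5429 CPM for 3 red blood cell miRNAs. For REST against CONT, edgeR without the block called no listed marker in either breed. DESeq2 called miR-155 and miR-143 as higher and miR-200b and miR-200c as lower in HOLS, where 3.45% of all miRNAs were called. Between the breeds, beside the stromal calls, 1 of 7 leukocyte miRNAs was called in CONT, as higher in MONT, where 7.47% of all miRNAs were called. In REST 1 of 2 endothelial miRNAs was called as lower in MONT, and of 9 epithelial miRNAs 1 was called as higher and 1 as lower, where 13.7% of all were called.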

Additional observations from a re-analysis of the deposited data

Results flagged for a closer look

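Of 16 sets of libraries, each 1 member in 1 breed and period, 4 held a library that stood apart by Dixon's 95% criterion, where chance gives about 1 in 20, or 0.8 of 16. The sets are not independent, since miR-181c and miR-181d varied together, and the CONT library of cow 9615 is counted once for each. All were in MONT. For miR-181b the REST library of cow 5663 had 762 CPM, where the others had 599.7 to 643. For miR-181c the CONT library of cow 9615 had 559.7 CPM, where the others had 131 to 277, and the REST library of cow 1652 had 754 CPM, where the others had 201 to 364. For miR-181d the CONT library of cow 9615 had 67.2 CPM, where the others had 10.98 to 27.7. The cause of none of these was tested.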

How the results depend on the processing

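The direction of the members' log2 fold changes held in every alternative, each cow left out included, for REST against CONT in each breed and for MONT against HOLS in each period. In the difference between the breeds, miR-181b was 0.0185 with library size only. With each cow left out, that difference ran from -0.0865 to 0.13 for miR-181a (-0.0137 without cow 1165, -0.0426 without 2614 and -0.0865 without 8200, and -0.0401 and -0.0598 without 2614 and 8200 with the block) and from -0.0374, without cow 1652, to 0.97 for miR-181d. The cause was not tested.

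In HOLS, where no member passed without the block, the cow as a block called 3 of 4 (miR-181a 0.45, miR-181b 0.46, miR-181d 0.39) and DESeq2 called 2 of 4 (miR-181a 0.46, miR-181b 0.45). With the block and each cow left out, 1 to 2 were called, with 0.35 to 0.51 for miR-181a and 0.38 to 0.47 for miR-181b (0.41 without cow 2182). The block changed no other call with all cows. It moved the calls among all HOLS miRNAs from 9 to 61, and DESeq2 moved them to 26, limma-voom to 17, library size only to 20 and no filter to 5, and with a cow left out it was 3 to 14, or 26 to 56 with the block.

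In MONT, 0 to 2 members (and 0 to 46 of all miRNAs) were called with each cow left out, and 0 to 3 (0 to 140) with the block as well. The values ran from 0.42 to 0.64 for miR-181a with the block, from 0.29 to 1.20 for miR-181c (0.55 to 1.13 with the block) and from 0.29 to 1.304 for miR-181d (0.63 to 1.25 with the block). In the difference between the breeds, 0 to 2 (0 to 23 of all miRNAs) were called with the block and each cow left out, with 0.36 to 0.93 for miR-181c and 0.25 to 0.93 for miR-181d.

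For MONT against HOLS in REST, where miR-181c alone passed, DESeq2 called 3 of 4 (miR-181b at -0.45 and miR-181d at 0.97 beside it), library size only called 2 (miR-181d at 1.17), no filter called 0 (miR-181c at 1.05), and leaving out a cow called 0 to 2, with 0.77 to 1.25 for miR-181c and 0.70 to 1.16 for miR-181d. Calls among all miRNAs in REST went from 53 to 85 with DESeq2 and to 16 to 101 with a cow left out. In CONT the calls among all miRNAs went from 29 to 3 with library size only, to 3 without a filter, to 15 with limma-voom and with upper quartile, to 16 with a mean count of at least 10, and to 0 to 31 with a cow left out.

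The change of the ratio in HOLS was 0.0668 for miR-181b over miR-181d, against 0.17 for the sums. Leaving out a cow gave 0.70 to 0.75 for the log2 miR-181a to miR-181b difference between breeds. With 94 reads in its shallowest library, miR-181d carries the most counting error of the members.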
